A study of Homo sapiens with 4 samples.

Results

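Desmosomes are junctions that tie the intermediate filaments of one epithelial cell to those of its neighbour. The 7 desmosome genes described here were chosen by name, with earlier results of these data known. They are DSC2 and DSG2 (desmosomal cadherins), DSP (desmoplakin), JUP (plakoglobin) and the plakophilin genes PKP2, PKP3 and PKP4. All 7 had a row among the 15279 named rows of the deposited table. RNA-seq had been made from 2 libraries of MDA231-BR (MDA-MB-231Br), a brain metastatic derivative of MDA-MB-231 and a single subline, and from 2 libraries of MDA231-P, the parental MDA-MB-231 line. Neither line carries an allele or agent in its labels. MDA-MB-231 is a human triple-negative breast cancer line of mesenchymal-like appearance. Both lines were grown in DMEM with 10% FBS. Separate cultures are not stated for the libraries of either line, and the p-values therefore reflect only library-to-library spread, possibly technical.

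In a desmosome, desmocollins and desmogleins span the membrane and bind across the gap between cells. Plakoglobin and the plakophilins, which carry armadillo repeats, bind the cadherin tails and desmoplakin, and desmoplakin anchors keratin or vimentin filaments. Carcinoma cells that lose epithelial features often have fewer desmosomes, and desmoglein 2 and desmocollin 2 are the desmosomal cadherins of simple epithelia. Repressors of the SNAI and ZEB families, which act on junction genes, bind E-boxes with the letters CACCTG.

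The promoters of these genes are shown first. RefSeq windows (GRCh38.p14), each from 250 bases before to 50 bases after a transcript start, were matched for 5 of the 7 genes, all but PKP2 and PKP3, and gave 8 windows. An E-box, searched as CACCTG on both strands, was found in windows of 4 of these 5 genes, against 24.1% of all 27305 genes with a window. The 4 are DSC2, DSG2, DSP and JUP, and neither PKP4 window held one. The stretches of 30 bases around each are printed 5′ to 3′ on the strand of the gene, with the E-boxes in capitals.
DSC2, chr18:31102560-31102589, minus strand: tcaactttctgtCAGGTGggcctcaggcag
DSG2, chr18:31497933-31497962, plus strand: acgtcacggtccCAGGTGcgagtgcgagcg
DSG2, chr18:31498049-31498078, plus strand: tcgcggcggccaCACCTGgagccgcgcctt
DSP, chr6:7541481-7541510, plus strand: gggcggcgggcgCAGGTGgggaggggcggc
DSP, chr6:7541574-7541603, plus strand: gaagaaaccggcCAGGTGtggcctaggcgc
JUP, chr17:41786007-41786036, minus strand: tggcccCACCTGccgagCAGGTGagcgcac
The DSC2 E-box began 156 bases before the first of its 2 starts, and the window of the other start held none. Those of DSG2 began 232 and 116 bases before its start. Those of DSP began 178 and 85 bases before the start. The JUP pair began 54 and 43 bases before the second of its 2 starts, and the window of the first held none. The GC box GGGCGG was in windows of 5 of the 5 genes, against 48.3% of all genes. The letters AACCGGTT of the grainyhead-like factors and TGANTCA of AP-1 were in none of the 8 windows, against 0.165% and 9.37% of all genes, with both strands searched. The shares of all genes were not matched to the members for windows per gene or GC content. A match of letters is a description and does not show that a factor was bound.

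The libraries held 28107820 and 25835225 reads on named genes in MDA231-BR A and B, and 30771290 and 27554570 in MDA231-P A and B, the letters following column order. Over the 14424 genes tested, the median absolute log2 difference between libraries of a line was 0.377 in MDA231-BR and 0.260 in MDA231-P. Mitochondrial pseudogenes took 0.0483% and 0.170% of reads in MDA231-BR A and B, against 0.0431% and 0.0425% in MDA231-P A and B, so library MDA231-BR B stands apart. Vimentin, which marks the mesenchymal-like state of this line, was abundant at 4371 CPM (reads scaled to the library total) in MDA231-BR and 1528 CPM in MDA231-P (means, n = 2 each). Of the 6 mesenchymal-like markers, VIM and FN1 (fibronectin) were called higher and CAV1 (caveolin-1) lower, at 379 CPM in MDA231-BR and 1043 CPM in MDA231-P (limma-trend adjusted p = 0.00523), and CD44, ZEB1 and AXL were not called. Without MDA231-P A or MDA231-P B these 3 calls ended (limma-trend adjusted p between 0.0505 and 0.101). The luminal marker CDH1, encoding E-cadherin, had only 8 and 14 reads in MDA231-BR and 3 and 6 reads in MDA231-P. The desmosome genes were thus measured in cells with hardly any E-cadherin transcript.

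Desmosome transcripts were more abundant in the brain metastatic line, with DSC2 the most changed. Of the 7 genes, 5 were called higher in MDA231-BR (DSC2, JUP, DSP, PKP3 and PKP2), against 8.61% of all tested genes called higher, at a Benjamini-Hochberg adjusted p below 0.05 with limma-trend. None of the 7 was called lower, against 5.80% of all tested genes. At an unadjusted p below 0.05 the count of lower genes was also 0 with limma-trend, and edgeR, DESeq2 and limma-voom called 0 lower. In 7 of 7 genes both MDA231-BR libraries lay above both MDA231-P libraries, as did 31.7% of all tested genes, and in 0 of 7 both lay below, as in 29.7% of all tested genes. In such bulk RNA, more cells making a transcript and more of it per cell cannot be told apart. The median log2 fold change was 1.13 over the 7 genes and 0.01 over all tested genes. Since the 7 genes were chosen with earlier results of these data known, these comparisons with all tested genes are a description.

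**Figure D1:**
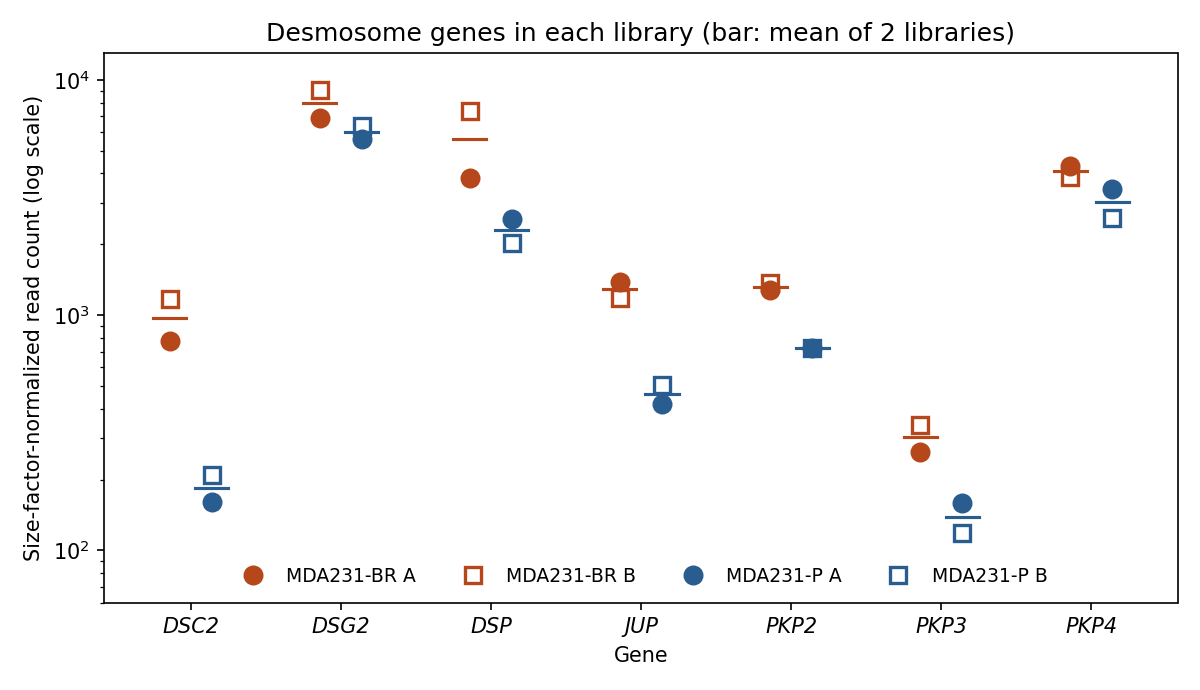
Size-factor-normalized read counts (log axis) of the 7 desmosome genes in each library, with MDA231-BR left of MDA231-P for each gene and a bar at the mean of 2 libraries. Every MDA231-BR point lies above the MDA231-P points of its gene, by most for DSC2 (means 973 and 185) and least for DSG2 (means 7952 and 6008).

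Among the desmosomal cadherins, DSC2, which encodes the desmocollin of simple epithelia, had normalized read counts of 775 and 1171 in MDA231-BR A and B, against 160 and 210 in MDA231-P A and B. The groups were far apart, and in both lines library B was the higher. DSC2 averaged 973 ± 280 in MDA231-BR and 185 ± 34.7 in MDA231-P (SD, n = 2 each), a ratio of means of 5.26. Its log2 fold change was 2.37 ± 0.306 SE (limma-trend adjusted p = 0.00295), and 2.36% of all tested genes had a higher one. DSG2, the widely expressed desmoglein gene, measured 6888 and 9016 in MDA231-BR A and B, against 5621 and 6394 in MDA231-P A and B. Its MDA231-BR A value lay just above the higher parental one, and the difference did not pass the test (log2 fold change 0.39 ± 0.235 SE, limma-trend adjusted p = 0.284). DSG2 was nevertheless the most abundant of the 7 genes in both lines per transcript length.

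DSP, whose product links the plaque to intermediate filaments, had normalized read counts of 3839 and 7345 in MDA231-BR A and B, against 2561 and 2020 in MDA231-P A and B. The brain metastatic libraries differed from each other by 0.94 on the log2 scale, the widest gap between 2 libraries of a line among the 7 genes. The ratio of the DSP means was 2.44, with a log2 fold change of 1.22 ± 0.325 SE (limma-trend adjusted p = 0.0422). The log2 fold change was 1.69 without MDA231-BR A and 0.76 without MDA231-BR B, and it was called in both fits. Library MDA231-BR B, with the higher DSP value, is also the one with more mitochondrial pseudogene reads, whose part in the result was not tested.

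JUP, encoding the armadillo protein plakoglobin that sits in both desmosomes and adherens junctions, measured 1385 and 1185 in MDA231-BR A and B, against 418 and 507 in MDA231-P A and B. Here library A was the higher of the brain metastatic pair, unlike for DSC2 and DSP. JUP averaged 1285 ± 141 in MDA231-BR and 463 ± 63.1 in MDA231-P (SD, n = 2 each), a ratio of means of 2.78 and a log2 fold change of 1.47 ± 0.249 SE (limma-trend adjusted p = 0.00825). Its close relative CTNNB1, encoding beta-catenin of adherens junctions, averaged 15871 in MDA231-BR and 15273 in MDA231-P and was not called (log2 fold change 0.05 ± 0.224 SE, limma-trend adjusted p = 0.900). A difference between the fold changes of JUP and CTNNB1 was not tested.

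The plakophilins bind desmoplakin and gather desmosomal cadherins at the membrane. PKP2, the plakophilin of simple epithelia and heart, had normalized read counts of 1273 and 1367 in MDA231-BR A and B, against 724 and 726 in MDA231-P A and B. These were the tightest replicates of the 7 genes, and the ratio of means was 1.82 (log2 fold change 0.86 ± 0.228 SE, limma-trend adjusted p = 0.0415). PKP3, found in most epithelial desmosomes, was the least abundant member by reads, at 263 and 342 in MDA231-BR A and B, against 159 and 118 in MDA231-P A and B. The groups did not overlap, the ratio of means was 2.19, and the test was passed narrowly (log2 fold change 1.13 ± 0.314 SE, limma-trend adjusted p = 0.0495). PKP4, also called p0071, is a plakophilin relative found at adherens junctions as well as desmosomes. It measured 4320 and 3858 in MDA231-BR A and B, against 3449 and 2578 in MDA231-P A and B. The parental pair differed by more than the gap between the lines' nearest libraries, and PKP4 was not called (log2 fold change 0.45 ± 0.238 SE, limma-trend adjusted p = 0.231). Its pseudogene PKP4P1, with which it could share reads, averaged 34.6 in MDA231-BR and 34.7 in MDA231-P.

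Leaving out single libraries kept every log2 fold change of the 7 genes above 0 but ended calls. Without MDA231-BR A or without MDA231-BR B, 5 of the 7 genes were called higher, in fits that called 5257 and 3147 of all 14424 genes. Without MDA231-P A 1 was called higher, and without MDA231-P B also 1, which was DSC2 in both fits (limma-trend adjusted p = 0.0326 and 0.0171). These fits also called fewer genes of all kinds, at 421 and 429 of 14424 against 2079 with 4 libraries. JUP then had adjusted p = 0.0965 without MDA231-P A and 0.0595 without MDA231-P B in limma-trend, with log2 fold changes of 1.33 and 1.61. For DSP, PKP2 and PKP3 the adjusted p without a parental library lay between 0.121 and 0.422.

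**Figure D2:**
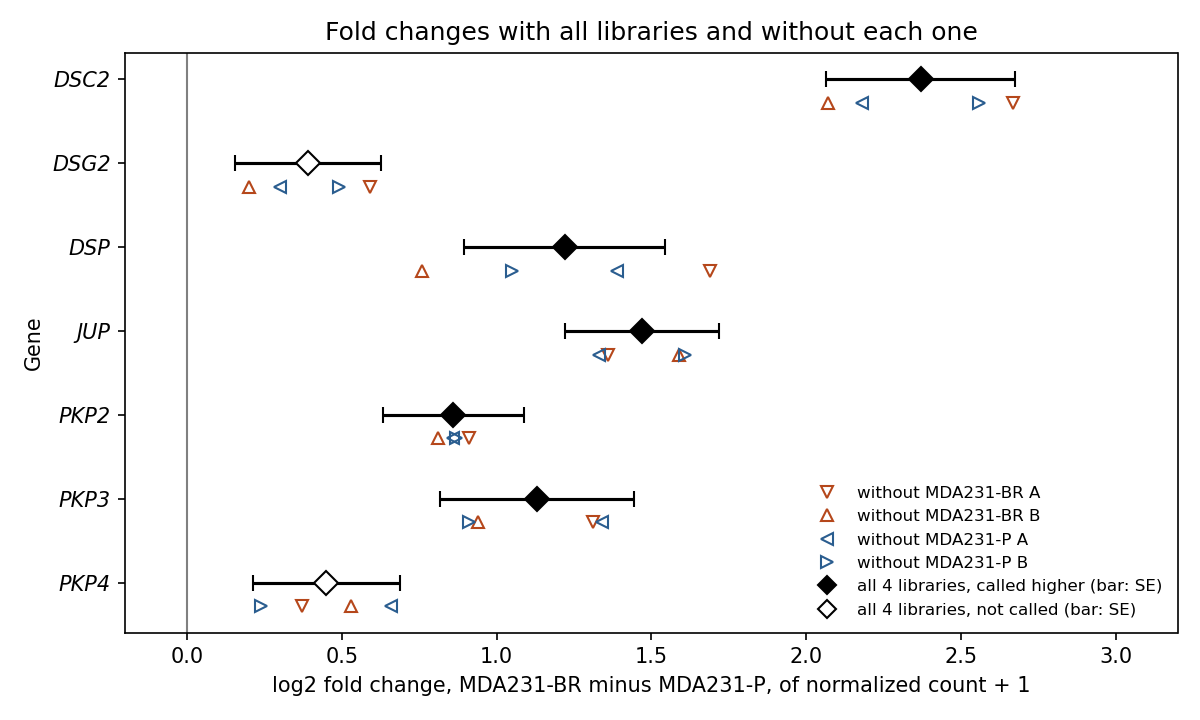
Log2 fold change of each desmosome gene, MDA231-BR minus MDA231-P, on the normalized count + 1 scale, with all 4 libraries (diamonds with SE bars, filled where called higher) and without each library (triangles below). All points lie above 0, and DSP moved most between fits, at 0.76 without MDA231-BR B and 1.69 without MDA231-BR A.

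Levels can be set beside each other between genes only per length, here as CPM per kilobase of the longest protein-coding transcript. Of the 7 genes, DSG2 was highest on that scale at 50.1 ± 8.99 in MDA231-BR and 38.9 ± 3.05 in MDA231-P (SD, n = 2 each). It was followed in both lines by PKP4 and then DSP. In MDA231-BR the libraries of PKP4 overlapped those of DSP, and those of DSP overlapped those of JUP, so the order of these neighbours is not resolved. JUP stood in the fourth place in MDA231-BR at 13.5 ± 1.62, above PKP2 at 11.3 ± 0.453, whereas in MDA231-P JUP at 4.99 ± 0.618 lay below PKP2 at 6.36 ± 0.0677 (SD, n = 2 each). PKP3 and DSC2 were the 2 lowest in both lines. The order depends in part on the divisor. By coding length instead, PKP2 (mean 7.84% of the summed level of the 7 genes) came before DSP (7.60%) in MDA231-P. On the scale per transcript length, the summed level of the 7 genes was 117 and 140 in MDA231-BR A and B. It was lower in both MDA231-P libraries, of which B had 79.4.

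DSC2 took a larger share of the cadherin pool in the brain metastatic line. It made up 5.05% and 5.79% of the DSC2 and DSG2 level per transcript length in MDA231-BR A and B, against 1.33% and 1.53% in MDA231-P A and B. Per coding length the DSC2 share averaged 13.1% in MDA231-BR and 3.66% in MDA231-P, because the longest DSC2 transcript, of 12325 bases, is mostly outside its 2703 coding bases. In either case DSG2 was the major desmosomal cadherin transcript. Within the plakophilins, PKP4 held 65.7% and 60.3% in MDA231-BR A and B, against 72.7% and 67.9% in MDA231-P A and B, per transcript length. PKP3 held 8.23% and 11.0% in MDA231-BR A and B, against 6.88% and 6.41% in MDA231-P A and B. These shares were not tested.

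**Figure D3:**
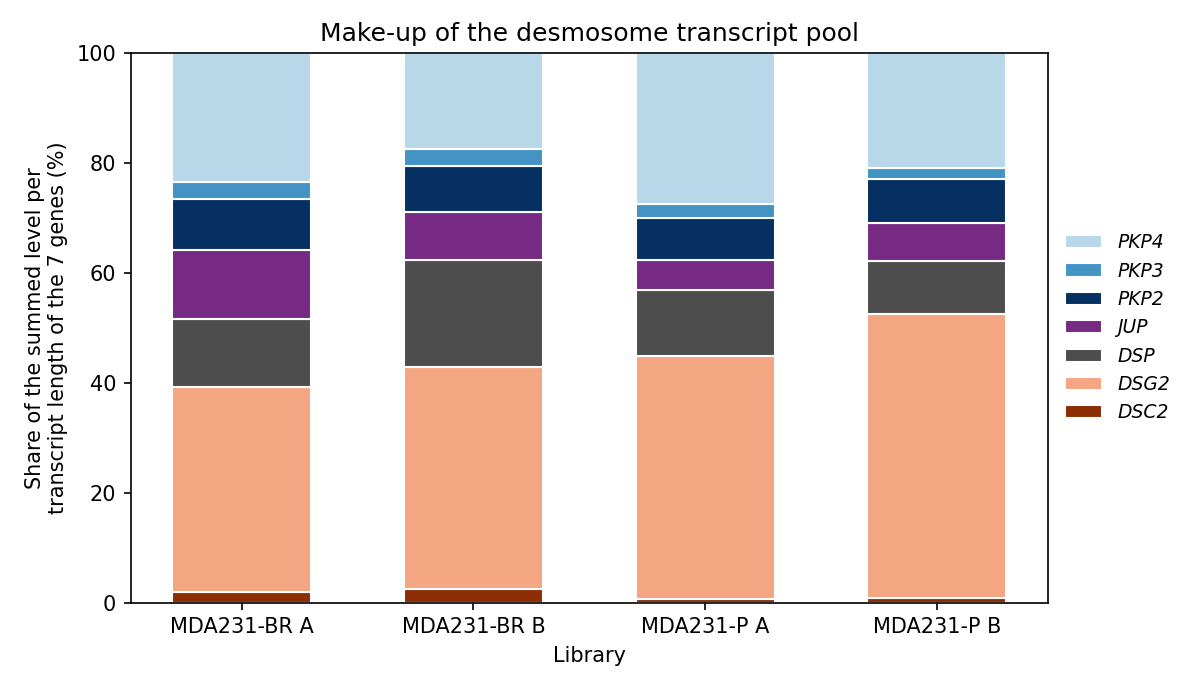
Share of each desmosome gene in the summed level per transcript length (percent, stacked to 100) in each library. DSG2 is the largest share everywhere (37.3% to 51.7%), and DSC2 holds 1.98% and 2.48% in MDA231-BR against 0.597% and 0.801% in MDA231-P.

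The stratified desmosomal genes DSC1, DSC3, DSG1, DSG3, DSG4, PKP1 and CDSN were not analysed here. PERP, a tetraspan protein of desmosomes, was the other desmosomal gene with a row. It measured 4045 and 3714 in MDA231-BR A and B, against 4495 and 5559 in MDA231-P A and B. Both brain metastatic values lay below both parental ones, without passing the test (log2 fold change -0.37 ± 0.225 SE, limma-trend adjusted p = 0.299).

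Of the intermediate filament genes that desmosomes can hold, 10 were tested, of which 1 was called higher, 1 lower and 8 not called, against 8.61% higher and 5.80% lower of all tested genes. VIM, the vimentin gene, measured 118095 and 119552 in MDA231-BR A and B, against 42476 and 38423 in MDA231-P A and B (log2 fold change 1.56 ± 0.228 SE, limma-trend adjusted p = 0.00473). The simple keratin gene KRT7 averaged 342 in MDA231-BR and 2131 in MDA231-P (log2 fold change -2.64 ± 0.251 SE, limma-trend adjusted p = 0.000771). KRT8, KRT18 and KRT19, keratins of simple epithelia, were not called, with log2 fold changes of -0.41, 0.35 and 0.33. Without MDA231-P A or MDA231-P B the VIM call ended (limma-trend adjusted p = 0.0769 and 0.101), while KRT7 was called in each of the 4 fits that left out a library.

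Plakin and hemidesmosome genes, whose products fix keratin filaments to the basement membrane or to other junctions, had 5 of 14 tested members called higher, 0 lower and 9 not called, against 8.61% higher and 5.80% lower of all tested genes. The median log2 fold change was 1.04. Neither edgeR, DESeq2, limma-voom nor an unadjusted p below 0.05 in limma-trend called any lower (0 each), and DESeq2 called 8 higher. ITGB4, the hemidesmosomal integrin subunit, measured 1773 and 2147 in MDA231-BR A and B, against 435 and 472 in MDA231-P A and B (log2 fold change 2.10 ± 0.239 SE, limma-trend adjusted p = 0.00177). ITGB4 was called in each of the 4 fits that left out a library. The desmoplakin relatives PPL, EVPL and PLEC were not called (limma-trend adjusted p between 0.0739 and 0.853). The list had 11 called higher without MDA231-BR A, where 5257 of all genes were called against 2079 with 4 libraries, 4 without MDA231-BR B, and 1 without either MDA231-P A or MDA231-P B.

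Adherens junction genes had 1 of 18 tested members called higher, 0 lower and 17 not called, against 8.61% higher and 5.80% lower of all tested genes. The counts are near these shares, and the median log2 fold change was 0.06. The called gene was NECTIN2, a nectin adhesion molecule, which was 1.95 times as high in MDA231-BR as in MDA231-P by the ratio of means (log2 fold change 0.96 ± 0.218 SE, limma-trend adjusted p = 0.0249). At an unadjusted p below 0.05 limma-trend gave 2 lower, DESeq2 called 1 lower, and edgeR and limma-voom called 0. The NECTIN2 call ended without MDA231-P A or MDA231-P B (limma-trend adjusted p = 0.151 and 0.227). The list had 4 called higher and 1 lower without MDA231-BR A, and 1 higher and 3 lower without MDA231-BR B.

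Desmosome regulators, among them kinases, sheddases and microtubule partners of desmoplakin, had 2 of 29 tested members called higher, 1 lower and 26 not called, against 8.61% higher and 5.80% lower of all tested genes. The counts are near these shares, and the median log2 fold change was -0.09. ADAM10, a protease that sheds cadherin ectodomains, averaged 8656 in MDA231-BR and 15137 in MDA231-P (log2 fold change -0.81 ± 0.223 SE, limma-trend adjusted p = 0.0469). MMP14, a membrane-type metalloprotease, measured 19027 and 33901 in MDA231-BR A and B, against 9424 and 8256 in MDA231-P A and B (log2 fold change 1.53 ± 0.299 SE, limma-trend adjusted p = 0.0151). PRKD2, a protein kinase D, had a log2 fold change of 0.92 ± 0.242 SE (limma-trend adjusted p = 0.0404). These 3 calls ended without MDA231-P A and without MDA231-P B (limma-trend adjusted p between 0.0830 and 0.362), and that of ADAM10 also with no filter on low values (limma-trend adjusted p = 0.0561). The list had 8 called higher and 3 lower without MDA231-BR A, 5 higher and 1 lower without MDA231-BR B, and 4 higher and 2 lower with DESeq2.

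Epithelial gene regulators had 7 of 18 tested members called higher, 2 lower and 9 not called, against 8.61% higher and 5.80% lower of all tested genes. The median log2 fold change was 0.46. The list holds repressors of junction genes, such as SNAI2 and ZEB2, beside epithelial factors such as EHF. Its counts therefore give no single direction for epithelial genes. EHF, an epithelial ETS factor, measured 8224 and 9351 in MDA231-BR A and B, against 1194 and 1647 in MDA231-P A and B (log2 fold change 2.64 ± 0.244 SE, limma-trend adjusted p = 0.000731). LEF1, a Wnt pathway factor, had a log2 fold change of 2.15 ± 0.314 SE (limma-trend adjusted p = 0.00473, and 0.0700 without MDA231-P B). SNAI2, the E-box-binding repressor Slug, averaged 656 in MDA231-BR and 1522 in MDA231-P (log2 fold change -1.23 ± 0.256 SE, limma-trend adjusted p = 0.0186). Other E-box binders of the list differed in direction and were named after their values were seen. SNAI1, encoding Snail, had 8 and 7 reads in MDA231-BR A and B, against 67 and 61 in MDA231-P A and B (log2 fold change -2.79, limma-trend adjusted p = 0.00803). ZEB2 averaged 1472 in MDA231-BR and 502 in MDA231-P (log2 fold change 1.55, limma-trend adjusted p = 0.00519), and ZEB1 averaged 3566 in MDA231-BR and 3575 in MDA231-P and was not called. TCF4, encoding an E-box-binding basic helix-loop-helix factor, averaged 139 in MDA231-BR and 31.1 in MDA231-P (log2 fold change 2.13, limma-trend adjusted p = 0.00848). Without MDA231-P A or MDA231-P B the list had 3 called higher and 0 lower, and SNAI1, SNAI2, ZEB2 and TCF4 were not called (limma-trend adjusted p between 0.0593 and 0.163). Without MDA231-BR B it had 7 higher and 5 lower. The E-boxes printed above lie in the promoters of DSC2, DSG2, DSP and JUP, and whether any of these factors acted there was not tested.

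**Figure D4:**
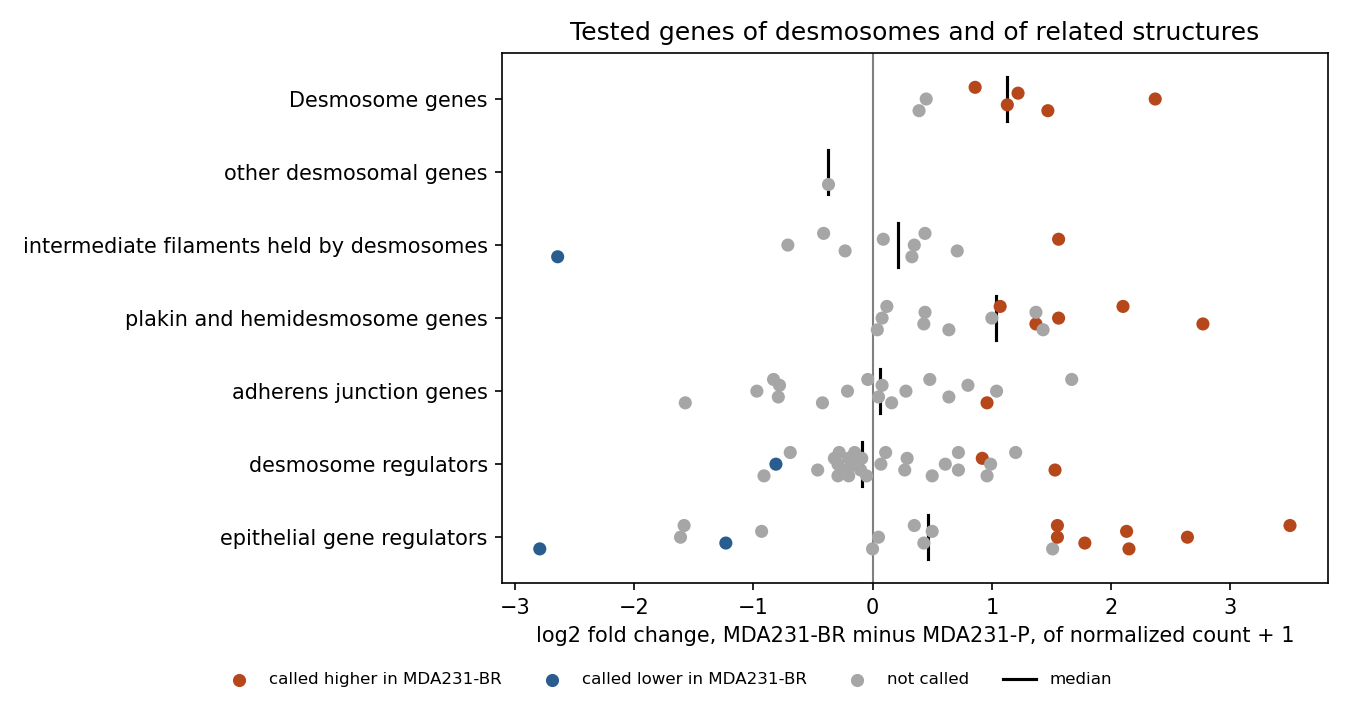
Log2 fold change, MDA231-BR minus MDA231-P, of the tested desmosome genes and of the tested genes of 6 related lists, coloured by call, with a black bar at each median. The desmosome genes (median 1.13) and the plakin and hemidesmosome genes (median 1.04) lie on the positive side of 0, and the adherens junction genes (median 0.06) spread on both sides.

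By chromosome the 7 genes are scattered over chromosomes 2, 6, 11, 12, 17 and 18, with DSC2 and DSG2 both on chromosome 18 (GENCODE release 29). Among genes with a row, DSC2 and DSG2 are direct neighbours. On their outer sides lie ARIH2P1 (log2 fold change -0.83, limma-trend adjusted p = 0.150) and B4GALT6 (log2 fold change 0.48, limma-trend adjusted p = 0.195), and neither was called. JUP had called neighbours outside the desmosome genes. On one side P3H4, encoding a collagen-modifying protein of the endoplasmic reticulum, had a log2 fold change of 1.14 (limma-trend adjusted p = 0.0386), not called without MDA231-P A or MDA231-P B (limma-trend adjusted p = 0.245 and 0.193). The gene after it, FKBP10, encoding a collagen chaperone, averaged 1974 in MDA231-BR and 106 in MDA231-P (log2 fold change 4.21, limma-trend adjusted p = 0.000153). EIF1 on the other side was not called (log2 fold change 0.28, limma-trend adjusted p = 0.422). The 2 nearest genes with a row on each side of DSP, PKP2, PKP3 and PKP4 were not called. Annotated genes on the other strand overlap DSC2, DSG2, PKP2 and PKP4, none has a row, and without a stated strand setting their reads could not be told apart from those of the members.

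The genes most like a member were those with the smallest Euclidean distance between centred log2 profiles over the 4 libraries, which is a description over few points. Closest to DSC2 were CIART, CLIC2 and SRPX2, at distances of 0.136 to 0.143. RAB9B and ARMCX3 were nearest to JUP, at 0.0548 and 0.0679. PKP2 was matched by RNF19B at 0.00976 and WLS at 0.0352. ADGRV1, at 0.104, and TIA1, at 0.121, were among the 3 nearest to DSP, and HEG1, at 0.0821, was nearest to PKP3.

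Markers of other cells were looked at beside these results. The luminal epithelial list, with 9 of 10 markers having a row, summed to 368 and 321 CPM in MDA231-BR A and B, against 374 and 365 CPM in MDA231-P A and B. In it CLDN4, a tight junction claudin, was called lower, at 15.8 CPM in MDA231-BR and 43.2 CPM in MDA231-P (limma-trend adjusted p = 0.00988, and 0.0777 and 0.152 without MDA231-P A and without MDA231-P B). The squamous keratinocyte list, with 3 of 7, summed to 44.7 and 35.3 CPM in MDA231-BR A and B, against 64.7 and 51.8 CPM in MDA231-P A and B. Nearly all of that sum was SFN, at 38.9 CPM in MDA231-BR and 57.4 CPM in MDA231-P, not called (limma-trend adjusted p = 0.195). KRT5 had 1 and 2 reads in MDA231-BR and 0 and 4 in MDA231-P, and TP63 had 17 and 37 reads against 16 and 29. Neither summed level was higher in both MDA231-BR libraries than in both MDA231-P libraries, but each sum rests on few genes. KRT8, KRT18 and KRT19 made up most of the luminal one, whose single markers differed in direction. CDH1, ESRP1 and ESR1, with too few reads to be tested, and KRT18 had both MDA231-BR libraries above both MDA231-P libraries. EPCAM (5.83 CPM in MDA231-BR and 13.8 CPM in MDA231-P, not called), KRT8 and CLDN4 had both below, and KRT19 and GATA3 overlapped. The endothelial list, with 3 of 4, summed to 26.6 CPM in MDA231-BR A and more in MDA231-BR B, against 4.78 and 8.53 CPM in MDA231-P A and B. In it KDR, at 20.6 CPM in MDA231-BR and 2.48 CPM in MDA231-P, was called higher (limma-trend adjusted p = 0.00112), while CDH5, which defines endothelium, had 5 and 0 reads in MDA231-BR and 1 and 4 in MDA231-P. PECAM1, the remaining marker with a row, had 201 and 206 reads in MDA231-BR A and B, against 83 and 151 in MDA231-P A and B. It was not called (log2 fold change 1.00, limma-trend adjusted p = 0.128). PMEL, the 1 melanocyte marker with a row, had 1.42 and 1.70 CPM in MDA231-BR and 0.845 and 1.13 CPM in MDA231-P. MBP, the 1 neural marker with a row, had 139 and 146 CPM in MDA231-BR and 88.7 and 95.4 CPM in MDA231-P, and was not called (limma-trend adjusted p = 0.0750). The part of these genes in the desmosome results was not tested, and fibroblast and leukocyte markers were not analysed here.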

How the data were processed

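The deposited table holds 1 signal value per gene and library, a read count divided by a size factor, although its name speaks of counts. HISAT2, featureCounts, DESeq2 and GRCh37 are named, per the submitters' processing notes, with no versions. No source used here gives the strand setting, annotation or filters. Each column held whole multiples of 1 step (100% of values within 0.01 reads), which gave whole reads. Column headers name only the line. The 67 unnamed rows (0.0310% to 0.0369% of reads) were left out, and 20 rows named as dates were not named. The chi-square per degree of freedom between libraries of a line was 124 in MDA231-BR and 61.4 in MDA231-P, so they are not copies. Total reads per library set the precision: 1 read is worth 0.0325 to 0.0387 CPM.

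Genes were kept by filterByExpr (minimum count 10, minimum total 15), which left 14424, all 7 desmosome genes among them. The main test was limma-trend on log2(value + 1), fitted to the whole table with Benjamini-Hochberg adjustment, threshold 0.05. A fold change on that scale understates changes of low genes. The quasi-likelihood test of edgeR, run on whole reads, called 2228 genes in all, against 2079 in limma-trend. The fits were tested on simulated data. Values are means ± SD of 2 libraries. Transcript lengths came from GENCODE release 29 by symbol, and promoter windows from RefSeq. Protein features, though planned, were not analysed here. The members and lists were chosen with earlier results of these data known. Text names the members and, from each list, up to 2 called genes with the largest increase and decrease at 5 or more CPM, plus genes named for their role, position or lack of a call. 1 gene that this rule names is not reported here. Software comprised Python 3.11.15 and R 4.3.3 with DESeq2 1.42.0, edgeR 4.0.16 and limma 3.58.1. Alternatives comprised other tests, scalings, filters and pseudocounts, thinning to 25835225 reads, and leaving out each library.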

Additional observations from a re-analysis of the deposited data

How the results depend on the processing

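No gene among the 7 desmosome genes changed sign under any of 14 alternatives. With all libraries kept, DSC2, JUP and PKP2 were called under all 10 alternatives, DSP under 9 and PKP3 under 7, and DSG2 and PKP4 under none. Without a filter on low values 3 of the 7 genes were called higher, against 5, as DSP and PKP3 had adjusted p = 0.0524 and 0.0630 in limma-trend. Leaving out single libraries gave 1 to 5 desmosome genes called higher and 421 to 5257 genes called in all, with 5257 without MDA231-BR A, 3147 without MDA231-BR B, 421 without MDA231-P A and 429 without MDA231-P B. The lone library was then assumed to vary like those of the other line, and the cause of the shift was not tested. ZEB1, not called, had log2 fold changes of -0.08 to 0.07 without single libraries (0.03 without MDA231-BR B, 0.07 without MDA231-P B) and of 0.02 after thinning, against -0.00 with all reads. The median log2 fold change of all genes stayed within -0.02 to 0.03. Coding length as a divisor was chosen after seeing the data. No paired analysis was possible because the table's columns carry no replicate number.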
